A study of Mus musculus with 12 samples.

Results

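Fatty acid synthesis and desaturation was followed through 10 genes chosen by name from the 25097 genes in the tables. They were Acly, Acss2, Acaca, Fasn, Scd1, Scd2, Fads1, Fads2, Elovl5 and Elovl6, and 9 of them had enough counts to be tested, the exception being Scd1. RNA sequencing covered 12 libraries of G1E-ER-GATA-1 cells, a line of mouse erythroid precursors, in 4 groups of 3. Mutant cells, which the labels describe as Alas2 cis-element-mutant (double mutant), received 1 µM beta-estradiol together with 5-aminolevulinic acid (5-ALA, as the hydrochloride, at 1 mM), below estradiol/5-ALA mutant cells, or the same estradiol alone, below estradiol mutant cells. Wild-type (WT) cells received 1 µM beta-estradiol, below estradiol WT cells, or were untreated. The treatment lasted 48 h. Cells of all 4 groups lack their own GATA-1 and carry a fusion of GATA-1 with the estrogen receptor's hormone-binding part, which estradiol activates, and all grew with erythropoietin, medium conditioned by cells that make Kit ligand, and puromycin. The product of Alas2 performs the first step of heme synthesis in erythroid cells, whose product is 5-ALA, so that 5-ALA given to the cells bypasses it. The labels give no number of mutant clones, and no library here comes from untreated mutant cells, so a difference between mutant and WT cells that existed before estradiol cannot be told apart from one that arose with it.

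Fatty acids are built in the cytosol from acetyl-CoA, which Acly makes from citrate and Acss2 makes from acetate. Acaca carboxylates acetyl-CoA to malonyl-CoA, Fasn joins these units into palmitate, and elongases and desaturases of the endoplasmic reticulum lengthen the chain and introduce double bonds. Transcription of most of these genes is activated by SREBP factors, which the cell restrains when sterols or polyunsaturated fatty acids are plentiful. Erythroid cells need fatty acids for membranes, which are reshaped as the cells mature.

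The libraries held 20309085 to 43548387 expected counts, and 12115 genes were tested. Pearson's r across genes was 0.99232 to 0.99488 for libraries of the same group. Alas2 followed the labels: it averaged 12.3 ± 0.237 CPM (counts per 1000000, scaled for library size and composition; mean ± SD, n = 3, as for every mean below) in estradiol/5-ALA mutant cells, 7.64 ± 2.20 CPM in estradiol mutant cells, 4293 ± 15.1 CPM in estradiol WT cells and 5.12 ± 0.767 CPM in untreated WT cells. All 12 erythroid markers reached 1 CPM in each group. Their summed level ranged over 68974 to 74268 CPM in estradiol/5-ALA mutant cells, 25488 to 26929 CPM in estradiol mutant cells, 81586 to 82512 CPM in estradiol WT cells and 1396 to 1434 CPM in untreated WT cells. This sum includes Alas2 itself. The globin gene Hbb-bs led it with estradiol, at 47823 CPM in estradiol/5-ALA mutant, 13014 CPM in estradiol mutant and 46811 CPM in estradiol WT cells. Single markers differed less evenly between estradiol mutant and estradiol WT cells. Klf1 averaged 110 and 105 CPM, Gata1 722 and 868 CPM, and Slc4a1 984 and 2821 CPM. Markers of cells with high lipogenesis were close to 0, with summed levels of at most 0.18 CPM for 7 adipocyte markers and 0.0973 CPM for 6 hepatocyte markers in any library. The labels do not say that libraries of a group came from separate cultures, so p-values measure only the spread between these libraries.

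Promoter sequences were taken from RefSeq (build GRCm38.p6), in which 7 members had a 300-base window around the transcription start. No window was found for Scd1, Scd2 and Fads1. The 250 bases before the start are shown for Fasn, the synthase itself, for Elovl5, the member with the largest rise in mutant cells, and for Acss2, the member that moved against most of the others. Capitals mark the E-box CACGTG, the NF-Y motif CCAAT on either strand, and TGACNNNGC, a pattern of letters shared by antioxidant response elements and Maf recognition elements.
Fasn, chr11:120824548-120824797, strand -: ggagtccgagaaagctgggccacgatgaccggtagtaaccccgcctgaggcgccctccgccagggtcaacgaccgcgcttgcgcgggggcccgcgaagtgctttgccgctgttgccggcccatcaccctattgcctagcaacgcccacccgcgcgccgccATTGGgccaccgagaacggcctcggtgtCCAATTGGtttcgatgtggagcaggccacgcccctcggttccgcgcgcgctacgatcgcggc
Elovl5, chr9:77917115-77917364, strand +: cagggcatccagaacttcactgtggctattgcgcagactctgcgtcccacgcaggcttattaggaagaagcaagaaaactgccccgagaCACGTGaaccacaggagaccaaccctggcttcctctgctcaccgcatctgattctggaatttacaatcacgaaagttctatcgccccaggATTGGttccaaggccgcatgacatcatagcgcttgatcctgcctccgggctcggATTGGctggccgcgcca
Acss2, chr2:155517793-155518042, strand +: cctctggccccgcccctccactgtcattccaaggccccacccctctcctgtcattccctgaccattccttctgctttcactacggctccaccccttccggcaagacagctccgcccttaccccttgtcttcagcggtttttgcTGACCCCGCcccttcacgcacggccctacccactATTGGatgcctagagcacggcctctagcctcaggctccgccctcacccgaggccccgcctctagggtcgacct

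Each motif was searched on both strands of the 300-base windows. CCAAT matched in 4 of the 7 member windows, against 37.4% of the 32544 distinct windows of all genes. In the Fasn promoter it began 90, 62 and 59 bases before the start, in that of Elovl5 71 and 17 bases before it, and in that of Acss2 73 bases before it. The Acly window held CCAAT after the start. CACGTG matched in 1 member window, that of Elovl5, 161 bases before the start, against 7.17% of all windows. TGACNNNGC matched in 1 member window, that of Acss2, 107 bases before the start, against 12.4% of all windows, and it shared bases there with a match to the Sp1 motif GGGCGG. That Sp1 motif matched in 3 member windows, those of Acly, Fads2 and Acss2, against 35.9% of all windows. The sterol response element TCACNCCAC and the GATA motifs AGATAA and TGATAA matched in 0 of the 7 member windows, against 1.24%, 11.2% and 8.91% of all windows. Of 14 genes of sterol synthesis and uptake with a window, CCAAT matched in 14, the Sp1 motif in 13 and TGACNNNGC in 4. The E-box matched in 3 of these genes, the sterol response element in 1 and the GATA motifs in 0. A gene counted here if any of its windows matched, so these counts are not on the scale of the shares of windows. A match is a run of letters and was not measured as a bound site, and the window of Acaca lies at a start inside the gene.

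Per transcript length, Scd2 and Acss2 had the highest levels of the 10 members in the 3 groups with estradiol, whereas in untreated WT cells Fads2, Fasn and Acly stood between them. In TPM (transcripts per 1000000), Scd2, a stearoyl-CoA desaturase that puts the first double bond into saturated acyl-CoA, averaged 623 ± 18.1 TPM in estradiol/5-ALA mutant cells, 1039 ± 5.01 TPM in estradiol mutant cells, 515 ± 2.85 TPM in estradiol WT cells and 587 ± 2.14 TPM in untreated WT cells. Its share of the summed TPM of the 10 members was 45.1% in estradiol/5-ALA mutant cells, 58.3% in estradiol mutant cells, 34.9% in estradiol WT cells and 35.4% in untreated WT cells. Acss2 averaged 404 ± 9.93 TPM in estradiol/5-ALA mutant cells, 210.4 ± 2.51 TPM in estradiol mutant cells, 573 ± 2.16 TPM in estradiol WT cells and 146 ± 4.13 TPM in untreated WT cells. Only in estradiol WT cells was the Acss2 TPM the highest of the 10, and it rests there on an abundance-weighted transcript length of 1673 bases. In CPM, Scd2 stood above Acss2 in the same cells, at 1852 against 618 CPM. Fads2, Acly, Fads1, Fasn, Elovl5 and Acaca had group means between 20.2 and 233 TPM. Elovl6 averaged 0.22 ± 0.0458 TPM in estradiol/5-ALA mutant cells, 0.47 ± 0.0917 TPM in estradiol mutant cells and 0.563 ± 0.0764 TPM in estradiol WT cells, against 32.4 ± 0.883 TPM in untreated WT cells. The TPM of Fads2 rests on a length of 1508 bases in the deposited tables, whereas GENCODE M21 gives its transcript 3150 bases.

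**Figure D1:**
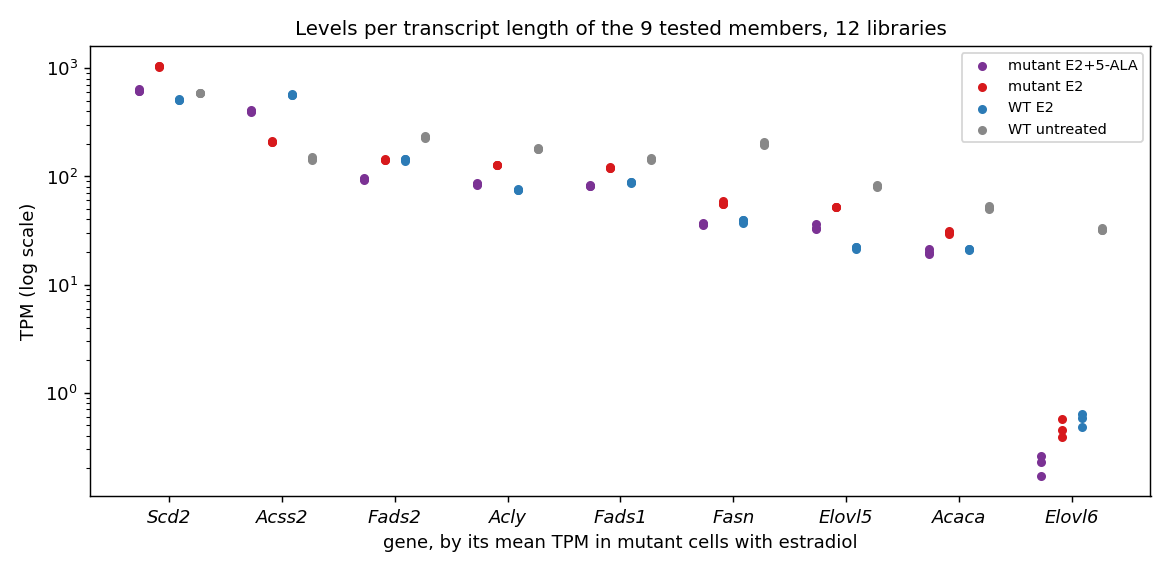
TPM (log scale) of the 9 tested members in the 12 libraries, ordered by the mean in estradiol mutant cells; each point is a library and colours are the 4 groups, with E2 for estradiol. Scd2 and Acss2 lie above 140 TPM in every library, and Elovl6 lies below 1 TPM in every library with estradiol.

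Scd1, the desaturase that dominates in liver and adipose tissue, was almost absent. Its expected counts were 0, 1.05 and 1.06 in estradiol/5-ALA mutant cells, 0 in all 3 libraries of estradiol mutant cells, 1.06, 0.4 and 0 in estradiol WT cells, and 4.2, 0 and 2.12 in untreated WT cells. Over all 12 libraries it had 9 of the 846867 rounded counts of Scd1 and Scd2 together, 0.00106% (exact Clopper-Pearson 95% interval 0.000486% to 0.00202%, for counting error only). Reads shared by such paralogs are divided by a model, and those of this pair were counted almost wholly as Scd2.

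The mRNAs for both sources of acetyl-CoA had opposite orders of the groups, and acetyl-CoA itself was not measured. Acss2 also shares exon bases with Gss, a limit given below. Acly (chromosome 11, mm10 100476353 to 100528000, minus strand) had 220.3, 218 and 221 CPM in estradiol/5-ALA mutant cells, 278, 280.3 and 285 CPM in estradiol mutant cells, 193, 192 and 194 CPM in estradiol WT cells, and 392, 389.8 and 395 CPM in untreated WT cells. Acss2 (chromosome 2, 155517948 to 155585724, plus strand) had 488, 487 and 494 CPM in estradiol/5-ALA mutant cells, 245, 246 and 251 CPM in estradiol mutant cells, 625, 615 and 615 CPM in estradiol WT cells, and 179, 184 and 186 CPM in untreated WT cells. No group overlapped another for either gene, and the order of the groups for Acly was the exact reverse of that for Acss2.

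The carboxylase and the synthase were highest without estradiol. Acaca (chromosome 11, 84129672 to 84401651, plus strand), the rate-setting carboxylase, had 108, 103 and 107 CPM in estradiol/5-ALA mutant cells, 128, 129 and 122 CPM in estradiol mutant cells, 98.1, 101 and 101 CPM in estradiol WT cells, and 213, 206 and 209.8 CPM in untreated WT cells. Fasn (chromosome 11, 120805846 to 120824547, minus strand) had 187, 191 and 199 CPM in estradiol/5-ALA mutant cells, 255, 264 and 256 CPM in estradiol mutant cells, 204, 204 and 203 CPM in estradiol WT cells, and 886, 858 and 876 CPM in untreated WT cells. The untreated WT libraries stood far above all others for Fasn, estradiol mutant cells came next for both genes, and no groups overlapped.

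Among the desaturases, Scd2 (chromosome 19, 44293674 to 44306864, plus strand) had 2286, 2231 and 2235 CPM in estradiol/5-ALA mutant cells, 3246, 3264 and 3270.1 CPM in estradiol mutant cells, 1854, 1841 and 1860.2 CPM in estradiol WT cells, and 1725, 1699 and 1756 CPM in untreated WT cells. It was the only tested member highest in estradiol mutant cells, and its untreated WT libraries were lowest in CPM, though not in TPM. Fads1 (chromosome 19, 10182888 to 10196877, plus strand), a desaturase that completes arachidonate, had 186.7, 186.7 and 186.5 CPM in estradiol/5-ALA mutant cells, 237, 241 and 239 CPM in estradiol mutant cells, 198, 198 and 202 CPM in estradiol WT cells, and 269, 268 and 269 CPM in untreated WT cells. Its neighbour Fads2 (chromosome 19, 10062765 to 10101746, minus strand), the desaturase that starts polyunsaturated synthesis, had 89.1, 95.6 and 94.1 CPM in estradiol/5-ALA mutant cells, 123, 120.2 and 122 CPM in estradiol mutant cells, 142, 139 and 134 CPM in estradiol WT cells, and 186, 185 and 184 CPM in untreated WT cells. The groups did not overlap for either gene, but estradiol mutant cells stood above estradiol WT cells for Fads1 and below them for Fads2 in CPM, while in TPM the Fads2 values of both groups overlapped, at 142 to 146 TPM against 138 to 145 TPM.

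Among the elongases, Elovl5 (chromosome 9, 77917364 to 77984519, plus strand), which extends polyunsaturated acyl-CoA, had 61.9, 59.6 and 59.4 CPM in estradiol/5-ALA mutant cells, 80.5, 81.04 and 79.9 CPM in estradiol mutant cells, 38.6, 39.98 and 38.7 CPM in estradiol WT cells, and 117, 118 and 125 CPM in untreated WT cells. Elovl6 (chromosome 3, 129532355 to 129638495, plus strand), which extends palmitate to stearate, had 1.01, 0.885 and 0.69 CPM in estradiol/5-ALA mutant cells, 1.95, 1.34 and 1.55 CPM in estradiol mutant cells, 2.48, 1.87 and 2.3 CPM in estradiol WT cells, and 102, 105 and 105 CPM in untreated WT cells. Elovl5 separated all 4 groups. Elovl6 had the widest range of the 9 tested members as a ratio of group means and was high only in untreated WT libraries, and the 2 groups with estradiol and no 5-ALA overlapped, on 39.7 to 59.1 expected counts in mutant libraries and 50.8 to 76.2 in WT libraries.

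**Figure D2:**
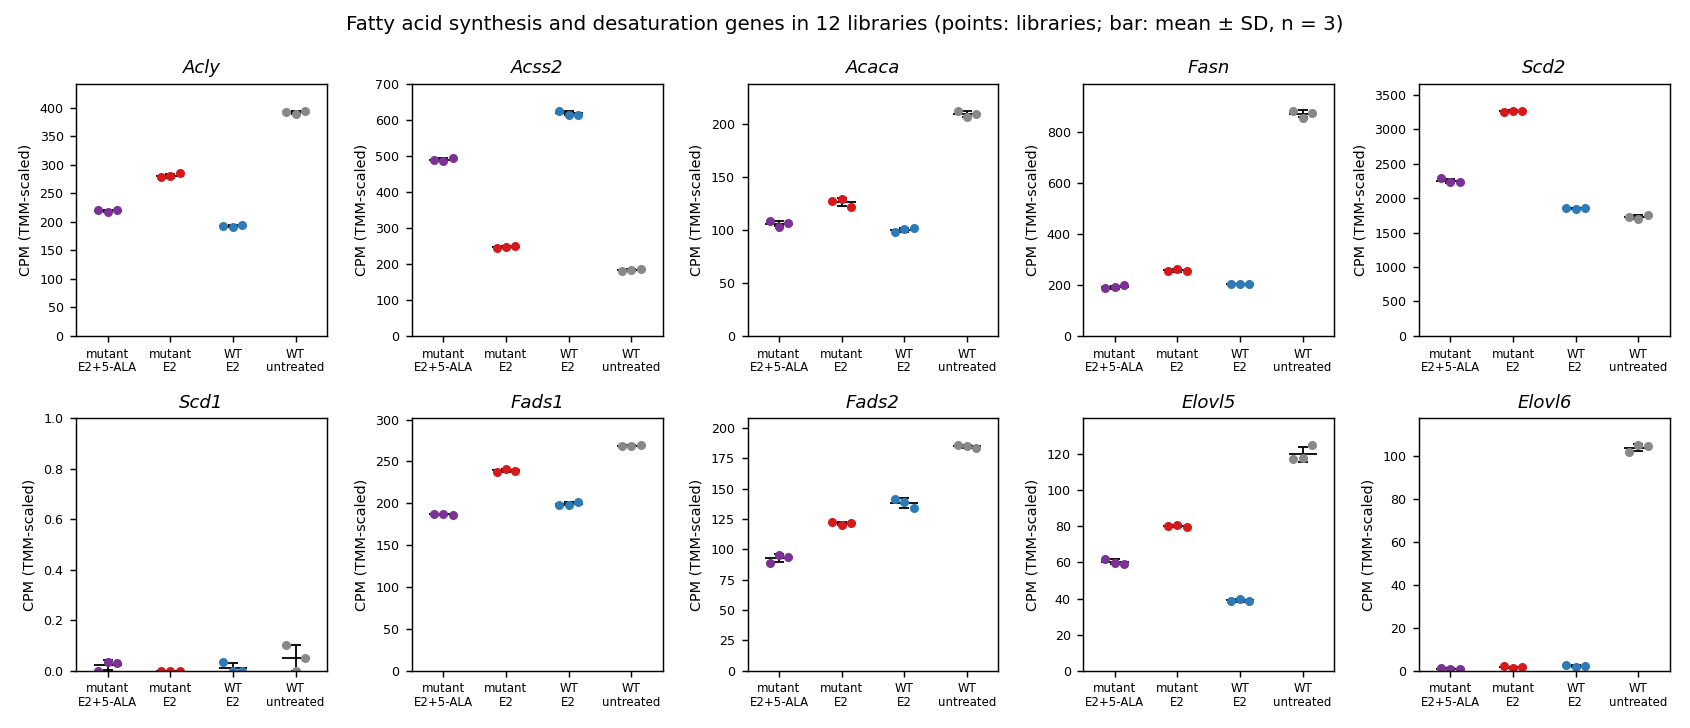
CPM of each member in the 12 libraries (points), with the group mean and SD (n = 3), each panel on its own axis from 0. Acss2 is highest in estradiol WT cells, Scd2 in estradiol mutant cells, and the other 7 tested members in untreated WT cells.

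Variation within groups was small beside these differences. The coefficient of variation of a tested member within a group was between 0.0573% (Fads1, estradiol/5-ALA mutant cells) and 3.63% (Fads2, the same group), apart from Elovl6, for which it reached 19.1% in estradiol mutant cells. When the 4 groups were ordered by CPM, all neighbours in the order differed at an adjusted p below 0.05 for each of the 9 tested members (edgeR quasi-likelihood F test, Benjamini-Hochberg adjustment), a criterion that 24.0% of all genes tested met. Calls depend on this narrow spread, so the sizes of the differences are given throughout as log2 fold changes with an approximate SE.

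The first comparison set WT cells given estradiol for 48 h, which activates ER-GATA-1, against untreated WT cells. No time is given for the untreated cells. ER-GATA-1 activation therefore cannot be told apart from other effects of estradiol or of time in culture. Most of the pathway fell: Elovl6 was 46.9-fold lower in estradiol WT cells than in untreated WT cells, Fasn 4.29-fold lower, Elovl5 3.07-fold lower, and Acaca and Acly 2.10-fold and 2.04-fold lower. Fads1 and Fads2 fell less, to 1.35-fold and 1.34-fold lower. Acss2 rose 3.38-fold. In all, 2 members were called higher and 7 lower, against 43.3% and 46.4% of all genes tested and 89.7% in either direction, so the number of calls is near the background. The members' median log2 fold change was −1.03, against −0.03 over all genes tested, and 6 of the 9 changed 2-fold or more, against 56.8% of all genes.

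The log2 fold changes were −5.55 (SE 0.07, adjusted p = 1.21e-32) for Elovl6, −2.10 (SE 0.02, adjusted p = 7.97e-34) for Fasn, −1.62 (SE 0.03, adjusted p = 1.19e-27) for Elovl5 and 1.76 (SE 0.02, adjusted p = 8.46e-33) for Acss2. Acaca stood at −1.07 (SE 0.03) and Acly at −1.03 (SE 0.02), Fads1 at −0.43 (SE 0.02) and Fads2 at −0.42 (SE 0.03). Scd2 was higher by 0.10 (SE 0.02, adjusted p = 8.53e-05) on the CPM scale but lower on log2(TPM + 1), at −0.19, where the median of all genes moved to −0.23 and Scd2 lay 0.04 above it, and its call was lost without a filter on low counts (0.07, adjusted p = 0.062). On the TPM scale 11.1% of the called members were higher, against 22.2% on the CPM scale. Markers of other cell types moved with this contrast. Of 6 mast cell markers, 1 reached 1 CPM in estradiol WT cells and 2 in untreated WT cells, with sums of 1.87 to 2.12 CPM and 134 to 149.7 CPM, led by the protease gene Cpa3, while Mcpt8, Tpsb2 and Fcer1a were at 0 in both. Of 7 megakaryocyte markers, 5 reached 1 CPM in estradiol WT cells and 4 in untreated WT cells, with sums of 1846 to 1869 CPM and 185 to 192 CPM. The integrin gene Itgb3 carried that difference, at 1784 CPM in estradiol WT cells and 87.9 CPM in untreated WT cells. The other 6 summed to 70.7 to 71.5 CPM in estradiol WT cells and 97.4 to 102 CPM in untreated WT cells, and Pf4, a platelet chemokine, averaged 2.37 CPM in estradiol WT cells and 28.4 CPM in untreated WT cells. Of 7 fibroblast and stromal markers, 0 reached 1 CPM in estradiol WT cells and 1 in untreated WT cells, Pdgfrb, which averaged 0.377 CPM in estradiol WT cells and 11.5 CPM in untreated WT cells, with Dcn and Lum at 0 in both. Their part in the members' differences was not tested, and in bulk RNA fewer cells of a type and less RNA per cell cannot be told apart.

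With Alas2 cis-elements altered, much of the pathway was expressed at higher levels than in WT cells under the same estradiol treatment. Elovl5 was 2.06-fold higher in estradiol mutant than in estradiol WT cells, Scd2 1.76-fold, Acly 1.46-fold, Fasn 1.27-fold and Acaca 1.26-fold, and Fads1 rose less. Acss2 went the other way and was 2.50-fold lower in mutant cells. Here 6 members were called higher and 3 lower, against 35.1% and 33.6% of all genes tested and 68.8% in either direction. The members' median was 0.33, against −0.01 over all genes, and 2 of the 9 changed 2-fold or more, against 11.8% of all genes. All 10 members together summed to 1781 ± 6.16 TPM in estradiol mutant cells and 1476 ± 4.84 TPM in estradiol WT cells, and without Acss2 to 1571 ± 7.71 TPM in estradiol mutant cells and 904 ± 2.84 TPM in estradiol WT cells.

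Elovl5 had a log2 fold change of 1.04 (SE 0.03, adjusted p = 3.54e-21), Scd2 of 0.82 (SE 0.02, adjusted p = 1.22e-23), Acly of 0.54 (SE 0.02, adjusted p = 1.27e-19) and Acss2 of −1.32 (SE 0.02, adjusted p = 2.82e-28). Fasn stood at 0.34 (SE 0.02), Acaca at 0.33 (SE 0.03) and Fads1 at 0.26 (SE 0.02), all called. Fads2 was called lower in mutant cells on the CPM scale (−0.19, SE 0.03, adjusted p = 6.13e-07), but on log2(TPM + 1) it stood at 0.01, which is −0.11 relative to the median of all genes, and was not called (adjusted p = 0.737). Elovl6 was called lower (−0.52, SE 0.14, adjusted p = 0.00177) from overlapping libraries, and the call was lost without replicate 2 of estradiol mutant cells (−0.37, adjusted p = 0.06) and on both TPM scales. On log2(TPM + 1) the median of all genes moved to 0.12. The share of called genes that were higher moved to 70.7% on that scale, against 51.1% on the CPM scale, and the members' share to 85.7%, against 66.7%. The summed level of the megakaryocyte markers ranged over 422 to 437 CPM in estradiol mutant cells and 1846 to 1869 CPM in estradiol WT cells. Nearly all of that difference was Itgb3, at 391 CPM in estradiol mutant cells and 1784 CPM in estradiol WT cells, while the other 6 summed to 40.3 to 41 CPM in estradiol mutant cells and 70.7 to 71.5 CPM in estradiol WT cells. Their part in these differences was not tested.

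Adding 5-ALA to mutant cells moved all 9 tested members, 8 of them down. Scd2 was 1.45-fold lower in estradiol/5-ALA mutant cells than in estradiol mutant cells, Fasn 1.34-fold, Elovl5 1.34-fold, Fads2 1.31-fold, Fads1 and Acly 1.28-fold and Acaca 1.19-fold lower, and Elovl6 1.803-fold lower. Acss2 was 1.98-fold higher. The 1 member called higher and the 8 called lower stand against 21.6% and 21% of all genes tested, and 42.6% in either direction, so lower calls took a larger share of the members than of all genes, a description that was not tested. The members' median was −0.39, against 0.01 over all genes, and none of the 9 reached a 2-fold change, which 2.31% of all genes did. Acss2, at 0.98 (SE 0.02, adjusted p = 1.61e-24), lay just under that size.

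Among those that fell with 5-ALA, Scd2 had a log2 fold change of −0.53 (SE 0.02, adjusted p = 2.52e-18), Fasn of −0.43 (SE 0.02, adjusted p = 1.42e-14) and Elovl6 of −0.85 (SE 0.17, adjusted p = 0.000196). The others lay between −0.42 for Elovl5 and −0.25 for Acaca. All 9 kept their direction and their call under each of the 20 alternative settings, some of which only left out a library of a group not compared. The median of all genes moved to −0.15 on log2(TPM + 1). The share of called genes that were higher was 12.4% on that scale, against 50.7% on the CPM scale. With that median subtracted, Fasn stood at −0.48 and Scd2 at −0.58 on the TPM scale. The summed megakaryocyte markers ranged over 721 to 737 CPM in estradiol/5-ALA mutant cells and 422 to 437 CPM in estradiol mutant cells, of which Itgb3 made 687 CPM in estradiol/5-ALA mutant cells and 391 CPM in estradiol mutant cells. Without Itgb3 the sums were 41.1 to 41.9 CPM in estradiol/5-ALA mutant cells and 40.3 to 41 CPM in estradiol mutant cells, and the part of these markers in the differences was not tested. The differences of estradiol mutant from estradiol WT cells and of 5-ALA from no 5-ALA share the libraries of estradiol mutant cells, so their opposite signs are not independent of each other.

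Set directly against estradiol WT cells, estradiol/5-ALA mutant cells had 4 members higher and 5 lower, against 33.3% and 29% of all genes tested and 62.3% in either direction. The members' median was −0.08, against 0.01 over all genes, and 1 of the 9 changed 2-fold or more, against 7.77% of all genes. Elovl5 was higher by 0.62 (SE 0.04, adjusted p = 2.90e-15), Scd2 by 0.28 (SE 0.02, adjusted p = 1.83e-12) and Acly by 0.19 (SE 0.02, adjusted p = 7.31e-09). Elovl6 (−1.37, SE 0.16), Fads2 (−0.57, SE 0.03), Acss2 (−0.34, SE 0.02) and Fads1 (−0.10, SE 0.02) were lower. Acaca (0.08, SE 0.03, adjusted p = 0.0122) was higher on the CPM scale, but stood at −0.06 on log2(TPM + 1) without a call (adjusted p = 0.26). Fasn was called lower by a small margin (−0.08, SE 0.03, adjusted p = 0.00471), and its call was lost without replicate 2 of estradiol/5-ALA mutant cells (adjusted p = 0.0741). The call of Acaca was lost without replicate 1 of the same group (adjusted p = 0.0512) or replicate 1 of estradiol WT cells (adjusted p = 0.0679).

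**Figure D3:**
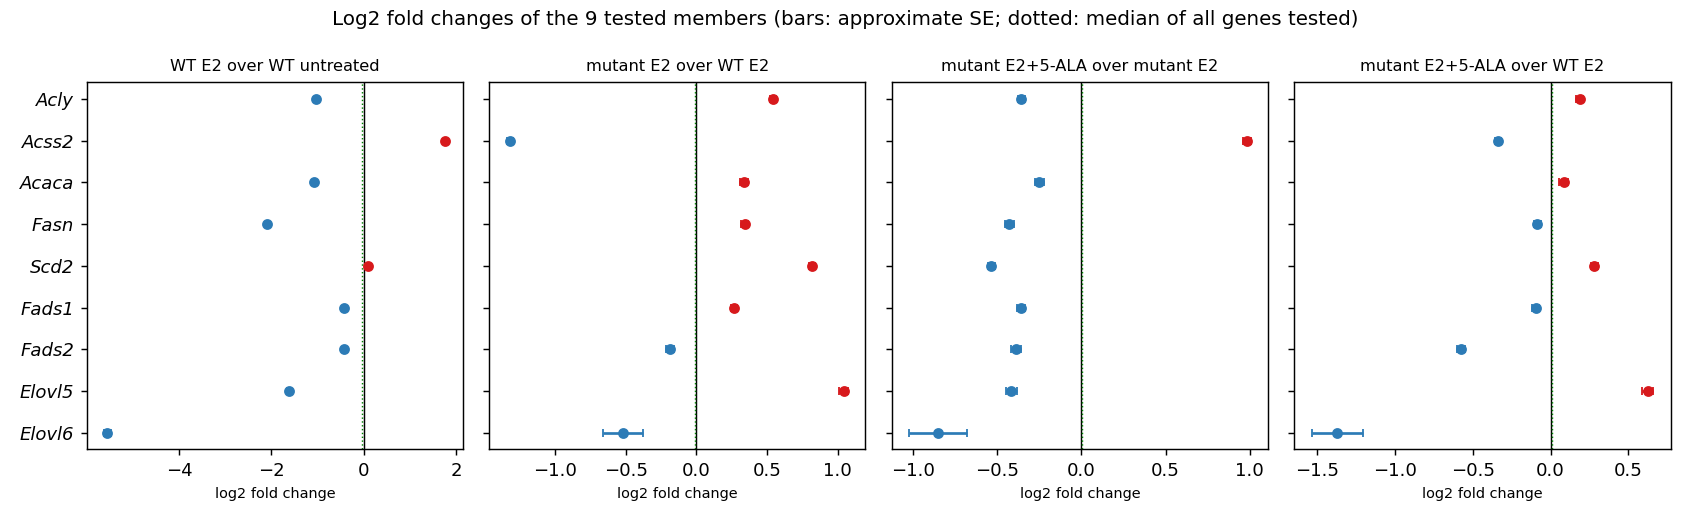
Log2 fold changes of the 9 tested members in 4 comparisons, with bars for the approximate SE, a dotted line at the median of all genes tested and a separate x axis per panel; red is higher and blue lower in the group named first. Scd2 in estradiol WT cells over untreated WT cells (0.10), Fads2 in estradiol mutant over estradiol WT cells (−0.19) and Acaca in estradiol/5-ALA mutant over estradiol WT cells (0.08) change sign on the TPM scale.

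Against untreated WT cells, both mutant groups had 7 members lower and 2 higher, Scd2 and Acss2. In estradiol mutant cells 42.5% of all genes tested were called higher and 45.5% lower in this contrast (88.1% in either direction), and in estradiol/5-ALA mutant cells 42.9% and 45.5% (88.3%). Changes of 2-fold or more were seen in 2 and 3 of the 9 members in these contrasts, against 51.7% and 53% of all genes. Fasn stood at −2.18 in mutant cells with 5-ALA and −1.76 in those without it, and Elovl6 at −6.92 and −6.07. Scd2 stood at 0.38 with 5-ALA and 0.92 without it, and Acss2 at 1.42 and 0.44. Fasn and Elovl6 were thus lower than in untreated WT cells in all 3 groups with estradiol, while the size for Acss2 ranged widely. In the mutant groups the parts of estradiol and of the mutant cells themselves cannot be told apart, as no library comes from untreated mutant cells.

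The values of Acss2 need its neighbourhood. Acss2 has 10 transcripts in the tables, and 3 of them share exon bases with Gss, the glutathione synthetase gene on the opposite strand, 395 of 10163 exon bases in all. Of these transcripts, 2 lie wholly within Gss, annotated as a processed transcript of 456 bases and a retained intron of 646 bases. The strand setting of the counting is not given in the sources used here, so reads of the shared bases could be assigned to either gene. Gss had 94.6, 91.9 and 94.1 CPM in estradiol/5-ALA mutant cells, 43.4, 43.1 and 44.4 CPM in estradiol mutant cells, 157, 157 and 156 CPM in estradiol WT cells, and 46.4, 45.5 and 47.6 CPM in untreated WT cells. Its groups followed those of Acss2 at a lower level, except that estradiol mutant cells were lowest for Gss and untreated WT cells for Acss2. The log2 fold changes of Gss were 1.75 in estradiol WT cells over untreated WT cells, −1.84 in estradiol mutant over estradiol WT cells and 1.101 in estradiol/5-ALA mutant over estradiol mutant cells. A second neighbour, Ggt7, shares 197 exon bases with Acss2 and stood at or below 0.128 CPM in every library.

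The transcripts to which Acss2 reads were assigned also differed between groups. Their abundance-weighted mean length was 1836, 1876 and 1873 bases in estradiol/5-ALA mutant cells, 2070.1, 2089.9 and 2063 bases in estradiol mutant cells, 1687, 1665 and 1669 bases in estradiol WT cells, and 2323, 2336 and 2399 bases in untreated WT cells. The groups did not overlap and were shorter where the Acss2 level was higher. Gss showed the same order, from 1088 to 1106 bases in estradiol WT cells up to 1494 to 1574 bases in untreated WT cells. Whether reads of Gss contribute to the Acss2 values was not tested.

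**Figure D4:**
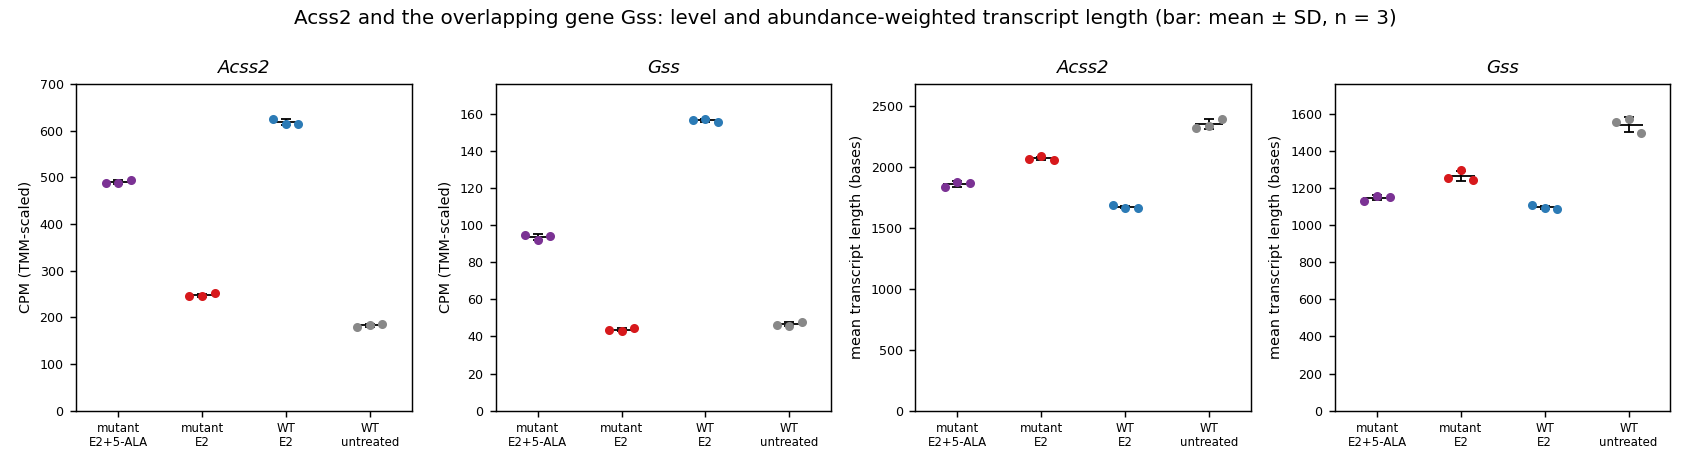
CPM and abundance-weighted mean transcript length (bases) of Acss2 and of the overlapping gene Gss in the 12 libraries (points), with group mean and SD (n = 3). Both genes are highest and their transcripts shortest in estradiol WT cells.

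Of the transcription factors that act on the pathway, Srebf1, whose product favours fatty acid genes, had the same order of groups as Acly except that the upper 2 overlapped. It averaged 142 ± 10.6 CPM in estradiol/5-ALA mutant cells, 176 ± 5.04 CPM in estradiol mutant cells, 104 ± 0.911 CPM in estradiol WT cells and 178 ± 6.38 CPM in untreated WT cells. Estradiol mutant cells and untreated WT cells overlapped for Srebf1 and were not told apart (log2 fold change −0.01, adjusted p = 0.858, edgeR). Srebf1 was lower in estradiol WT cells than in untreated WT cells (−0.77, SE 0.05), higher in estradiol mutant than in estradiol WT cells (0.76, SE 0.05) and lower with 5-ALA than without it (−0.31, SE 0.04). Srebf2, whose product favours sterol genes, averaged 575 ± 31.5 CPM in estradiol/5-ALA mutant cells, 658 ± 14.6 CPM in estradiol mutant cells, 591 ± 5.98 CPM in estradiol WT cells and 212 ± 2.95 CPM in untreated WT cells, and so went against Fasn in WT cells, with a rise of 1.48 (SE 0.03) on the log2 scale with estradiol. Mlxip, a glucose-responsive partner of Mlx, rose by 2.31 (SE 0.03) in the same contrast, whereas Mlxipl (ChREBP) and the liver X receptor gene Nr1h3 stood below 1 CPM in every library. The other liver X receptor gene, Nr1h2, averaged 96.2 ± 2.41 CPM in estradiol WT cells and 24.9 ± 1.72 CPM in untreated WT cells (1.95, SE 0.08). Insig1, which retains SREBP in the endoplasmic reticulum, had at most 0.0454 CPM in any library and was not tested. Its paralog Insig2 averaged 48.2 ± 1.89 CPM in estradiol WT cells and 15.8 ± 0.563 CPM in untreated WT cells (1.61, SE 0.05).

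The counts of calls in the lists that follow stand against 43.3% of all genes tested called higher and 46.4% lower in estradiol WT cells over untreated WT cells, 35.1% and 33.6% in estradiol mutant over estradiol WT cells, and 21.6% and 21% in estradiol/5-ALA mutant over estradiol mutant cells, and many are near these shares. Across 19 tested regulators, 12 were called higher and 6 lower in estradiol WT cells than in untreated WT cells, 10 higher and 6 lower in estradiol mutant than in estradiol WT cells, and 2 higher and 9 lower with 5-ALA than without it. Mid1ip1, whose product promotes acetyl-CoA carboxylase polymerisation, had the largest difference of these between both estradiol groups without 5-ALA, at 86.8 ± 8.24 CPM in estradiol mutant cells and 23.9 ± 0.957 CPM in estradiol WT cells (1.86, SE 0.07). With 5-ALA it stood at 62 ± 0.823 CPM, a fall of 0.49 on the log2 scale. Lpin1, a phosphatidate phosphatase and coregulator, rose by 4.57 with estradiol in WT cells.

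Other enzymes of chain elongation and desaturation did not move as a block. Of 17 tested, 9 were called higher and 6 lower in estradiol WT cells than in untreated WT cells, 8 higher and 6 lower in estradiol mutant than in estradiol WT cells, and 2 higher and 6 lower with 5-ALA than without it. Degs1, the dihydroceramide desaturase, averaged 608 ± 5.01 CPM in estradiol WT cells and 43.3 ± 2.16 CPM in untreated WT cells (3.81, SE 0.03). Fads3 averaged 114 ± 2.00 CPM in estradiol WT cells and 11.5 ± 0.677 CPM in untreated WT cells (3.31, SE 0.04), whereas both of its relatives Fads1 and Fads2 fell. Tecr, the last reductase of the elongation cycle, was higher in estradiol mutant than in estradiol WT cells (0.87, SE 0.04) and lower with 5-ALA than without it (−0.51, SE 0.03). Cyb5a, the cytochrome b5 that feeds electrons to desaturases, did the reverse, at −0.74 (SE 0.04) and 0.79 (SE 0.04).

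Enzymes that supply NADPH and precursors were split as well, with 5 of 12 called higher and 7 lower in estradiol WT cells than in untreated WT cells, 5 higher and 4 lower in estradiol mutant than in estradiol WT cells, and 7 higher and 3 lower with 5-ALA than without it. G6pdx and Pgd, the NADPH-producing enzymes of the pentose phosphate pathway, were lower in estradiol mutant than in estradiol WT cells, by −1.30 (SE 0.03) and −1.39 (SE 0.03), and higher with 5-ALA than without it, by 0.66 (SE 0.03) and 0.76 (SE 0.04). Their direction in both comparisons was that of Acss2 and opposite to that of Fasn. In estradiol WT cells over untreated WT cells they parted: G6pdx stood at 1.28, on the side of Acss2, and Pgd at −0.59, on that of Fasn. Malic enzyme, Me1, rose by 1.16 (SE 0.11) with 5-ALA, and cytosolic isocitrate dehydrogenase, Idh1, was higher in estradiol mutant than in estradiol WT cells by 0.57 (SE 0.02). Of 8 tested genes for fatty acid activation, binding and uptake, 1 was called higher and 7 lower in estradiol WT cells than in untreated WT cells, among them Acsl5 (−4.11) and Fabp5 (−3.22). In estradiol mutant over estradiol WT cells 5 of these 8 were called higher and 2 lower, with the acyl-CoA synthetases Acsl4 (1.27, SE 0.03) and Acsl5 (1.08, SE 0.06) among the higher, and Fabp5 (−0.53, SE 0.05) and the lipase gene Lpl (−0.53, SE 0.06) the lower.

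Sterol synthesis and uptake genes, which share SREBP control with the members, were set beside them. Of 21 tested, 19 were called higher and 1 lower in estradiol mutant than in estradiol WT cells, with a median of 0.84, against 35.1% and 33.6% of all genes tested. With 5-ALA 1 was called higher and 20 lower than without it, with a median of −0.48, against 21.6% and 21% of all genes. Sc5d, a sterol desaturase, was not called in the first of these comparisons. With estradiol in WT cells the sterol genes did not follow the members: 10 were called higher and 8 lower, with a median of 0.05 that moved to −0.23 on log2(TPM + 1), the shift of all genes. Mitochondrial fatty acid oxidation, the opposing pathway, had 7 of 19 genes called higher and 6 lower in estradiol mutant than in estradiol WT cells, and 4 higher and 5 lower with 5-ALA than without it. On log2(TPM + 1) these splits were 13 and 4, and 1 and 14. Of all genes called on that scale, 70.7% were higher in the first of these comparisons and 12.4% in the second.

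**Figure D5:**
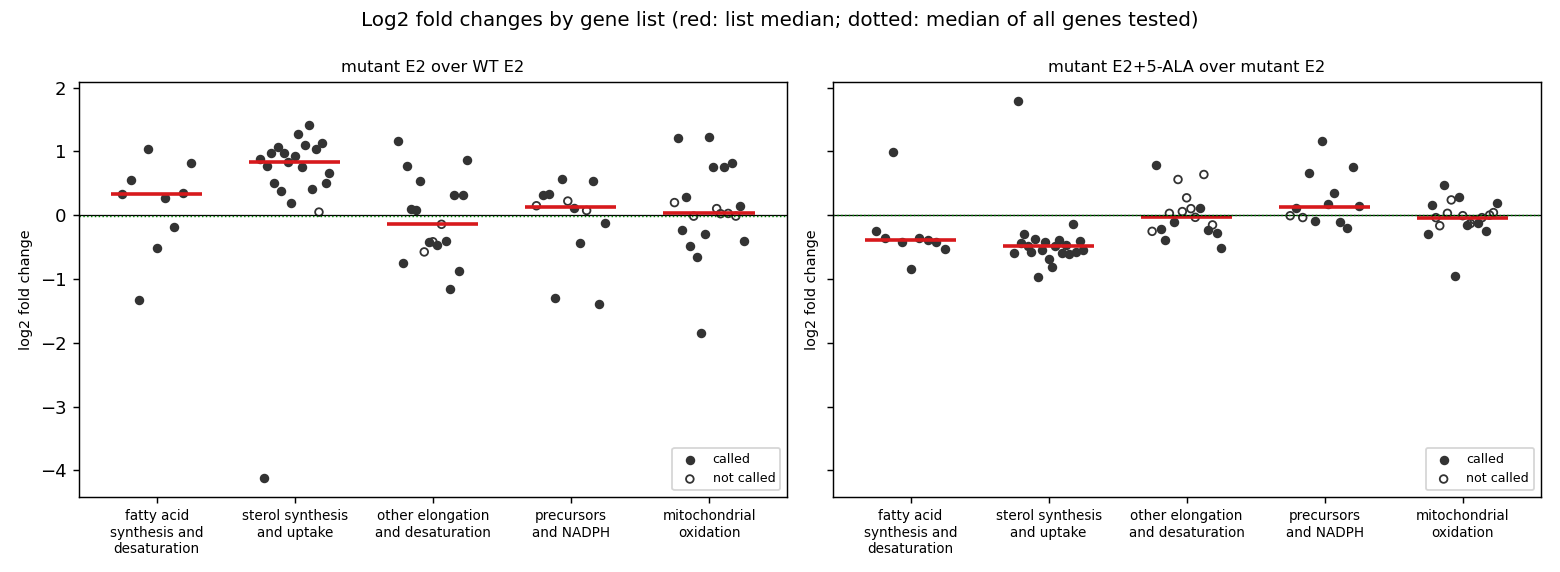
Log2 fold changes (CPM scale) of single genes in 5 lists for estradiol mutant over estradiol WT cells and for estradiol/5-ALA mutant over estradiol mutant cells; filled points were called, red bars are list medians. The members' medians (0.33 and −0.39) lie on the same sides of 0 as the sterol genes' (0.84 and −0.48). Medians of the other 3 lists lie between −0.14 and 0.13, with mitochondrial oxidation on the same sides (0.03 and −0.04). Of lists not shown, regulators (0.12 and −0.17) and fatty acid activation, binding and uptake (0.24 and −0.01) lie on these sides too. Glycerolipid synthesis (0.10 and 0.14) and mitochondrial fatty acid synthesis (−0.02 and 0.18) do not.

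The genes whose log2 CPM followed that of Fasn most closely over the 12 libraries were Adgrl1 (Pearson's r = 0.9991), Akr1b3 (0.9984), Glrx3 (0.9981), Ss18 (0.9979) and Kmt5a (0.9979). Libraries of a group share their treatment, and 23.2% of the 7717 genes with at least 10 CPM had an r of 0.95 or more, so a high value is common here. Adgrl1, an adhesion receptor gene, averaged 4.77 CPM in estradiol/5-ALA mutant cells, 7.53 CPM in estradiol mutant cells, 5.34 CPM in estradiol WT cells and 80.1 CPM in untreated WT cells.

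The members were also set beside their genomic neighbours. In estradiol WT cells over untreated WT cells Elovl6 lay furthest from them, at −5.55, against a median of −1.26 for the 24 tested genes around it. In the other 2 contrasts examined Acss2 lay furthest, at −1.32 in estradiol mutant over estradiol WT cells, against a median of 0.08 around it, and at 0.98 in estradiol/5-ALA mutant over estradiol mutant cells, against 0.04. For Elovl5 the log2 fold changes were −1.62 in estradiol WT cells over untreated WT cells and 1.04 in estradiol mutant over estradiol WT cells, against medians of −0.41 and −0.15 around it. Fads1 and Fads2, which lie next to each other on chromosome 19, had nearly equal log2 fold changes in estradiol WT cells over untreated WT cells (−0.43 and −0.42) and with 5-ALA over without it (−0.36 and −0.39). The medians around them were −0.35 and −0.46 in the first of these contrasts, close to their own values, and −0.01 and −0.07 in the second. In estradiol mutant over estradiol WT cells they parted, at 0.26 and −0.19, against medians of −0.13 around each.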

How the data were processed

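Libraries were made with a TruSeq kit from RNA isolated with TRIzol, per the labels' protocols. CASAVA 1.8.2, RSEM 1.2.20, Bowtie 1.1.1 and mm10 are named per the submitters' processing notes. Not given in the sources used here are read length, annotation release and strand use. The deposited tables give the RSEM expected count of each of 25097 genes, with reads shared between transcripts divided by likelihood, per the file headers. The authors' TPM and FPKM values in the deposited tables are scaled for length and library size. FPKM was not used. The abundance-weighted length of the deposited tables served to describe Acss2 and Gss.

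Expected counts were rounded, filtered by group (filterByExpr, 12115 genes kept) and scaled by TMM. One model with 4 group means was fitted to all 12 libraries with edgeR 4.0.16 in R 4.3.3. Contrasts used its quasi-likelihood F test, and the Benjamini-Hochberg adjustment covered all genes tested. Called, rose and fell mean an adjusted p below 0.05. The printed SE is approximate: the size of the log2 fold change divided by the root of F. The common biological coefficient of variation was 0.0334. Alternatives used other filters, DESeq2 1.42.0, limma 3.58.1 on log2(TPM + 1) and log2(TPM + 0.1), the replicate number as a block, fits of only the groups compared, and each library left out. The fit was tested on simulated data. A reference list of gene names gave symbols for 24746 identifiers, and GENCODE M21 gave positions and exons. The members and gene lists were chosen with earlier results of these data known. From each list, genes could be named if they were among the 4 called members with the largest change and a mean of at least 1 CPM, and genes like Fasn were the 5 with the highest r. A few others named beside these, among them Gss, Ggt7, Nr1h2, Insig2, Cyb5a and Fabp5 in mutant over WT cells and Sc5d, were chosen after their values were seen. Hsd17b8, a list gene, is not in the tables. Values of 1 gene of the sterol list are not reported here.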

Additional observations from a re-analysis of the deposited data

How the results depend on the processing

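Of 1080 log2 fold changes of the members under 20 alternative settings, 12 of which left out 1 library each, 1064 kept their direction and their side of the threshold, 10 lost their call and 6 turned. These values include fits without a library of a group not compared. Such fits could change a value only through the shared filter, scaling and spread, so the number kept overstates stability. The 6 that turned did so on the TPM scales: Scd2 in estradiol WT cells over untreated WT cells stood at −0.1875 on log2(TPM + 1) and −0.1878 on log2(TPM + 0.1), Fads2 in estradiol mutant over estradiol WT cells at 0.01161 and 0.01168, and Acaca in estradiol/5-ALA mutant over estradiol WT cells at −0.06225 and −0.06502. On log2(TPM + 0.1) the median of all genes moved by between −0.279 and 0.187 over the 6 comparisons. In the comparison of Acaca the median was 0.0019 on log2(TPM + 1), and Acaca stood at −0.0642 with it subtracted, with an abundance-weighted length of 7935 bases in estradiol/5-ALA mutant cells and 7201 bases in estradiol WT cells. Of the lost calls, 6 concern Acaca (0.06 with DESeq2 size factors and by the DESeq2 Wald test, 0.07 without 1 library) and Fasn (−0.07 with no filter, −0.06 without 1 library) in that last comparison, and the others Elovl6 in estradiol mutant over estradiol WT cells and Scd2 with no filter, as given above. The cause was not tested. The number of genes called lay between 9993 and 11662 in estradiol WT cells over untreated WT cells, 7776 and 8437 in estradiol mutant over estradiol WT cells, 4377 and 6510 in estradiol/5-ALA mutant over estradiol mutant cells, and 6708 and 7596 in estradiol/5-ALA mutant over estradiol WT cells. Replicate numbers did not pair the libraries: deviations of same-numbered libraries correlated between −0.104 and 0.0669 in 18 pairs, and with the replicate number as a block 10832, 8245, 5032 and 7456 genes were called in these 4 comparisons, with all 9 tested members still called in each. With no filter Scd1 entered the fit. A planned ratio of Scd1 to Scd2 was not run, since Scd1 had a rounded count in only 5 of 12 libraries. Depth limits Scd1, Insig1 and Elovl6 with estradiol, which rest on few counts.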
